A study of Chlorocebus sabaeus with 45 samples.

Results

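The early response of the blood transcriptome to relocation was measured by comparing 15 samples taken on day 3 after capture with 15 samples taken from the same animals in the field on day 0, which made 30 of the 45 samples of the series. Samples were chosen by the day given in their labels and were paired by animal. All animals were wild-born juvenile male vervet monkeys (Chlorocebus sabaeus) from St. Kitts, each from a different troop. The day 0 sample was drawn where the animal was trapped, shortly after capture and under ketamine with xylazine. The day 3 sample was drawn in the primate facility, where the animals lived in individual housing, under dexmedetomidine with midazolam. The 15 samples of day 14, drawn like those of day 3, served only to show how changes seen on day 3 stood later. Time since capture, place, housing and sedative changed together between day 0 and day 3, and their shares in any difference cannot be told apart. The animals' social rank and the hour of each draw were not given in the sources used here.

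Whole blood RNA is a mixture. Young red cells (reticulocytes) still carry the transcripts of hemoglobin synthesis and the membrane skeleton, platelets carry RNA inherited from megakaryocytes, and neutrophils, monocytes and lymphocytes add their own programs. Adrenal hormones released under stress are known to move leukocytes between marrow, blood and tissue, and cortisol acts through the glucocorticoid receptor NR3C1 to switch on genes such as FKBP5, TSC22D3 and PER1. In bulk blood, fewer cells of a type and less RNA per cell cannot be told apart.

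Libraries of the 30 samples held 13216275 to 28999936 fragments on genes. Depth was higher on day 3 in 7 of 15 animals (exact two-sided sign-flip permutation p = 0.406). Blood markers were abundant in the field samples, with day 0 medians of 5247 FPKM (fragments per kilobase of gene, scaled to equal depth) for ALAS2, the erythroid heme enzyme, 2537 FPKM for S100A9, a neutrophil protein, and 782 FPKM for the pan-leukocyte gene PTPRC. Some libraries stood apart in the number of genes with at least 1 fragment. Over 24000 genes were detected in the day 0 libraries of animals 8, 9, 11, 12 and 15 and in the day 3 library of animal 8, and the number was lower on day 3 in 12 of 15 animals (23617 ± 2746 on day 0 and 22128 ± 1321 on day 3, mean ± SD, n = 15, exact sign-flip permutation p = 0.0341). The 20 most abundant genes took 10.8% ± 3.54 of fragments on day 0 and 14.4% ± 5.48 on day 3, higher in 13 of 15 animals (exact sign-flip permutation p = 4.27e-04). Results are therefore also given for the 10 animals without such a library. What sets the 5 other animals apart was not tested.

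**Figure D1:**
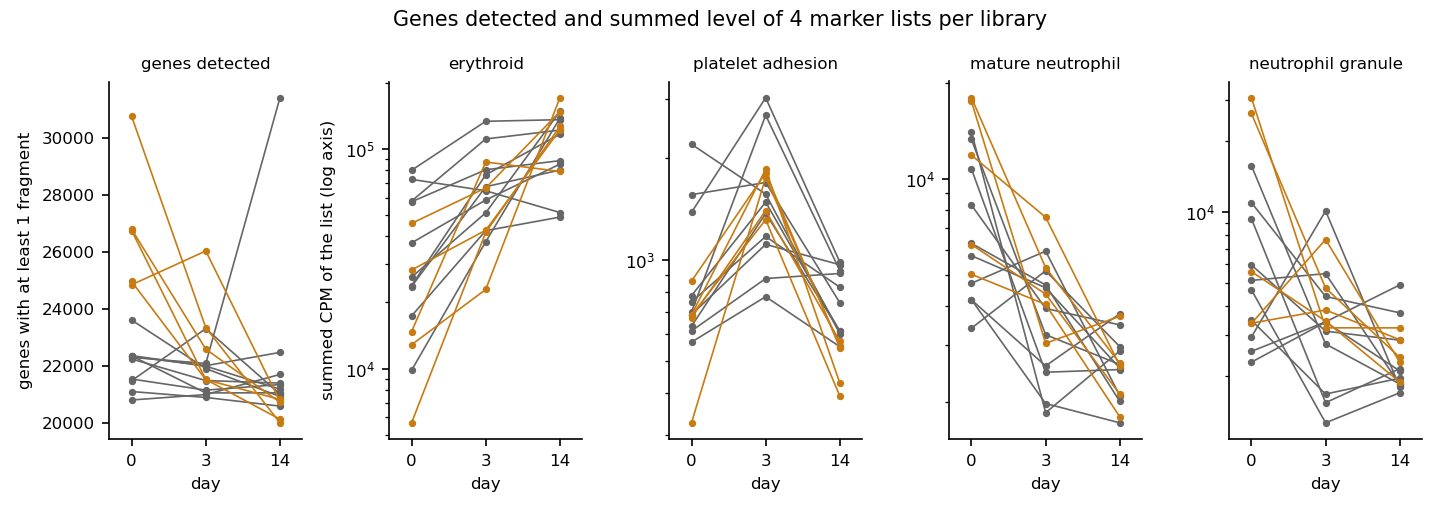
Genes detected per library (first panel, linear axis) and summed level of 4 marker lists in CPM (fragments scaled to equal depth, log axes) on days 0, 3 and 14, with 1 line per animal. The 5 animals with over 24000 genes detected on day 0 or day 3 are drawn in orange, and 4 of them had fewer genes on day 3 than on day 0. The median summed level was highest on day 14 for the erythroid list, on day 3 for the platelet adhesion list and on day 0 for both neutrophil lists.

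Differences were tested gene by gene with limma on the log2 scale, pairing samples by animal and adjusting p-values by Benjamini-Hochberg over all genes. Of 18142 genes tested, 3390 (18.7%) passed an adjusted p of 0.05 and are called here. On day 3 vs. day 0, 2121 (11.7%) were up-regulated and 1269 (6.99%) were down-regulated. At 2-fold or more, 320 genes (1.76%) were up-regulated and 153 (0.843%) down-regulated, the latter being 95 without animal 11, 87 without animal 7, 232 without animal 3 and 231 without animal 5. Most changes were small, and 1964 of the called genes moved by less than 1.5-fold. Every animal moved the same way for 255 of the up-regulated and 93 of the down-regulated genes. The mean day 0 level had a median of 15.2 FPKM over genes called lower and of 5.98 FPKM over genes called higher. The balance of directions followed the scaling between libraries, since 62.6% of calls were increases with TMM scaling (which equalizes the bulk of genes between libraries) and 46.8% without it, while the median log2 fold change (log2FC) of all genes went from 0.02 to -0.03. Each log2FC below is on the log2(FPKM + 0.1) scale, which understates changes of low genes, and is followed by its standard error (n = 15 pairs). In the 10 animals without a library that stood apart, 797 genes were called higher and 203 lower. All 3357 called genes that were tested there kept their sign, and 785 of the increases and 175 of the decreases were still called. These 10 animals are among the 15 on which the calls were made, so the agreement in sign was largely given in advance.

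**Figure D2:**
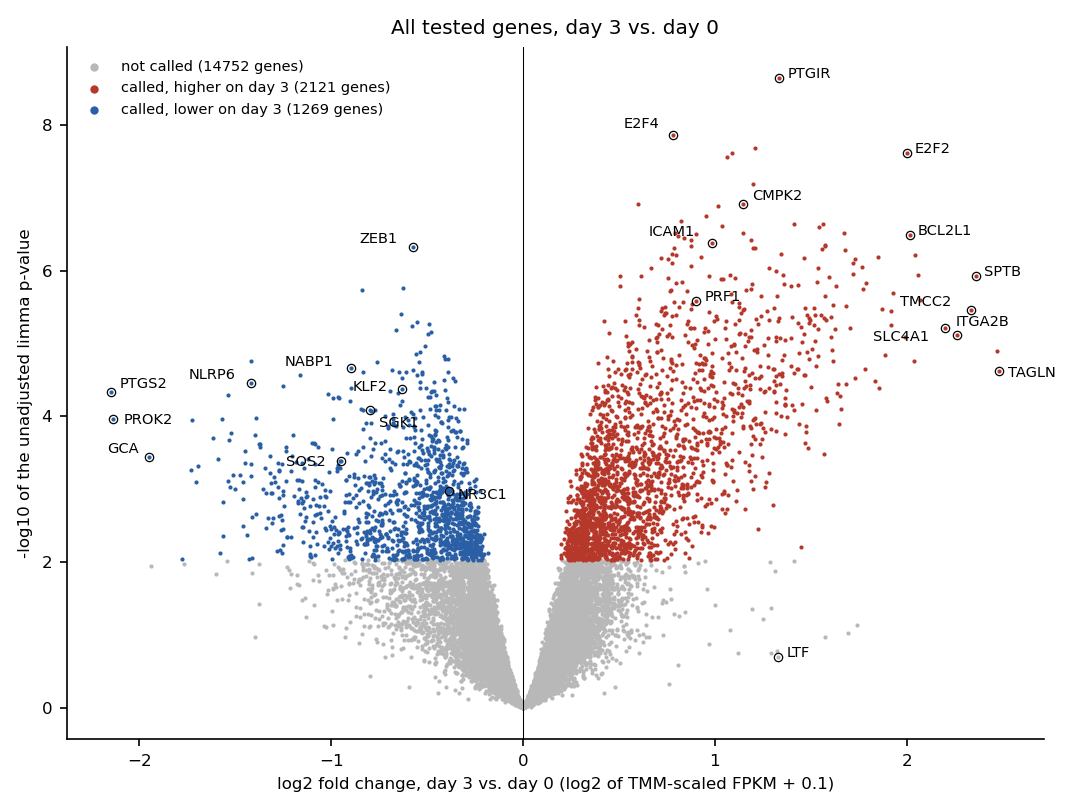
Each of the 18142 tested genes by its log2 fold change on day 3 vs. day 0 (x axis) and the -log10 of its unadjusted limma p-value (y axis), red where called higher, blue where called lower and grey where not called. Erythroid and platelet genes such as SPTB and ITGA2B lie far right, PTGS2, PROK2 and GCA far left, and PTGIR and E2F4 near the top.

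Genes of red cell precursors made up the broadest increase. Of 47 tested members of the erythroid list, 39 were called higher and none lower, a share of 83.0% beside 11.7% of all genes called higher, and the median log2FC was 1.23 beside 0.02 for all genes. The summed level of the list, in CPM (fragments scaled to equal depth), had a median of 26067 on day 0 and 64536 on day 3. The median change of the list was above 0 in all 15 animals, from 0.08 in animal 15 to 2.97 in animal 9. Genes of the membrane skeleton were among the increases. SPTB, which encodes erythroid beta spectrin, measured 0.481 to 6.29 FPKM (median 3.41) on day 0 and 2.9 to 33.6 FPKM (median 16.4) on day 3. Day 3 values lay above the highest day 0 value in 14 of 15 animals, and SPTB rose in every animal (log2FC 2.36 ± 0.33, adjusted p = 3.55e-04), a 5.13-fold change. SLC4A1, the band 3 anion exchanger that anchors the skeleton, spanned 4.1 to 217 FPKM (median 48) on day 0 and 63 to 528 FPKM (median 184) on day 3 and rose in all 15 animals despite the overlap of the groups (log2FC 2.26 ± 0.36, adjusted p = 7.38e-04). ADD2, an adducin, which caps actin filaments and recruits spectrin to them, rose from a median of 1.91 to 5.5 FPKM (log2FC 1.85 ± 0.24, adjusted p = 2.77e-04).

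TRIM58, a ubiquitin ligase of late erythroblasts, went from a median of 26.6 to 103 FPKM (log2FC 1.99 ± 0.32, adjusted p = 7.50e-04) and UBE2O, a ubiquitin enzyme that remodels the reticulocyte proteome, from 8.3 to 29.1 FPKM (log2FC 2.04 ± 0.27, adjusted p = 2.77e-04). TMCC2, a membrane protein, rose in all 15 animals (log2FC 2.34 ± 0.35, adjusted p = 5.64e-04), with 1 day 3 value, that of animal 6, at 469 FPKM against a median of 57. TFR2, the second transferrin receptor, measured 0.0981 to 1.01 FPKM (median 0.554) on day 0 and 0.232 to 4.37 FPKM (median 1.62) on day 3, so that 13 of 15 day 3 samples exceeded the day 0 range (log2FC 1.67 ± 0.21, adjusted p = 2.65e-04). ALAD, the second enzyme of heme synthesis, rose 2.28-fold in 15 of 15 animals (log2FC 1.19 ± 0.15, adjusted p = 2.65e-04). ALAS2, the first and rate-limiting one, rose from a median of 5247 to 12506 FPKM in 14 animals (log2FC 1.5 ± 0.28, adjusted p = 0.00179). The receptor EPOR, through which erythropoietin drives the lineage, rose 2.29-fold (log2FC 1.2 ± 0.16, adjusted p = 2.65e-04). Transcription factors of the lineage, GATA1, TAL1 and KLF1, rose by 1.16 ± 0.20, 1.4 ± 0.24 and 1.47 ± 0.32 (adjusted p = 0.00129, 0.00126 and 0.00501). AQP1, a water channel of red cells, rose 4.2-fold (log2FC 2.07 ± 0.30, adjusted p = 5.07e-04), and KANK2, which regulates the actin cytoskeleton, 4.17-fold (log2FC 2.06 ± 0.28, adjusted p = 3.55e-04). BCL2L1, whose product BCL-XL keeps maturing erythroblasts alive, measured 6.78 to 116 FPKM (median 37) on day 0 and 74.5 to 295 FPKM (median 165) on day 3 and rose 4.04-fold (log2FC 2.02 ± 0.25, adjusted p = 2.65e-04). With the 5 animals set apart left out, 35 erythroid members were called higher.

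Many cell cycle genes rose as well. Of 70 tested members of the mitotic list, 38 were called higher and none lower (54.3% beside 11.7% of all genes called higher), with a median log2FC of 0.46, and the summed level went from a median of 1094 to 1469 CPM. MCM2 and ORC1, which license DNA for replication, had the largest changes of the list. MCM2, a subunit of the replicative helicase, measured 5.57 to 68 FPKM (median 26) on day 0 and 28.3 to 149 FPKM (median 84) on day 3, with 8 of 15 day 3 samples above every field sample and a rise in all animals (log2FC 1.54 ± 0.21, adjusted p = 3.21e-04). ORC1, of the complex that marks replication origins, rose 2.7-fold (log2FC 1.43 ± 0.20, adjusted p = 3.89e-04). Among their regulators, E2F1 went from a median of 3.08 to 6.31 FPKM (log2FC 0.87 ± 0.16, adjusted p = 0.0018). E2F2, a family member outside the list that acts in the last divisions of erythroblasts, measured 1.51 to 10.04 FPKM (median 5.16) on day 0 and 4.96 to 32.5 FPKM (median 19.1) on day 3, with 13 day 3 samples beyond the day 0 range (log2FC 2.0 ± 0.21, adjusted p = 8.28e-05). E2F4, also outside the list and needed in red cell maturation, measured 6.37 to 14.7 FPKM (median 9.89) on day 0 and 13.7 to 24.7 FPKM (median 16.4) on day 3. It rose in all 15 animals, with 10 day 3 samples above the field range (log2FC 0.78 ± 0.08, adjusted p = 8.28e-05). MKI67, a proliferation marker, rose 1.95-fold (log2FC 0.96 ± 0.21, adjusted p = 0.00516), while PCNA, the replication clamp, had medians of 50.9 and 49.4 FPKM and was not called (log2FC 0.14 ± 0.12, adjusted p = 0.45). Calls in the list fell to 8 higher without the 5 animals set apart (median log2FC 0.35) and to 26 higher with the RNA integrity number, a score of RNA breakdown per sample, as a covariate. MKI67 was not called without those 5 animals (adjusted p = 0.0639).

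Platelet genes formed another large group of increases. Of 23 adhesion and activation receptors, 16 were called higher and none lower (69.6% beside 11.7% of all genes called higher, median log2FC 1.19). The count was 17 higher of 27 for the platelet cytoskeleton and signaling list (63%, median 0.90) and 9 higher of 21 for granule content (42.9%, median 0.36), again with none lower. The receptors' summed level had a median of 685 CPM on day 0 and 1481 CPM on day 3. ITGA2B, the alpha chain of the fibrinogen receptor, measured 4.0 to 115 FPKM (median 13.7) on day 0 and 23.4 to 196 FPKM (median 70.9) on day 3. The groups overlapped, with animals 4, 13 and 14 the highest in the field, and 14 of 15 animals rose (log2FC 2.2 ± 0.35, adjusted p = 6.57e-04). Its beta partner ITGB3 went from a median of 19.2 to 78.8 FPKM (log2FC 2.04 ± 0.35, adjusted p = 0.00117). The collagen receptor GP6 measured 0.491 to 7.55 FPKM (median 1.22) on day 0 and 1.7 to 7.8 FPKM (median 4.26) on day 3 and rose 2.99-fold (log2FC 1.58 ± 0.24, adjusted p = 6.10e-04). GP9, of the von Willebrand factor receptor, rose in all 15 animals (log2FC 1.45 ± 0.23, adjusted p = 6.57e-04), as did P2RX1, the ATP-gated channel, from a median of 1.01 to 3.21 FPKM (log2FC 1.57 ± 0.20, adjusted p = 2.65e-04). F2RL3, a thrombin receptor, was low throughout, with medians of 0.286 and 0.782 FPKM, and rose 2.22-fold (log2FC 1.15 ± 0.17, adjusted p = 5.55e-04).

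Inside the platelet, TAGLN, an actin-binding protein of the contractile apparatus, had the largest rise among genes with a symbol, a mean of at least 5 CPM and the same direction in at least 14 animals. TAGLN measured 0.20 to 21.3 FPKM (median 1.33) on day 0 and 1.34 to 41 FPKM (median 11.3) on day 3, with 1 high field sample, animal 13, and rose 5.59-fold in 14 animals (log2FC 2.48 ± 0.44, adjusted p = 0.00135). CTTN, cortactin, rose 3.78-fold (log2FC 1.92 ± 0.30, adjusted p = 6.35e-04), MYLK, the myosin light chain kinase, 2.47-fold (log2FC 1.31 ± 0.20, adjusted p = 5.55e-04), and TREML1, a receptor stored in alpha granules, 3.05-fold (log2FC 1.61 ± 0.25, adjusted p = 5.96e-04). PRKAR2B, a regulatory subunit of protein kinase A abundant in platelets, rose from a median of 30.6 to 60.9 FPKM in all 15 animals (log2FC 0.99 ± 0.15, adjusted p = 6.10e-04). CLU, a secreted chaperone, rose 3.07-fold (log2FC 1.62 ± 0.28, adjusted p = 0.00117), ANGPT1, a vessel-stabilizing growth factor, 2.11-fold (log2FC 1.07 ± 0.19, adjusted p = 0.0012), and NRGN, a calmodulin-binding protein, 2.54-fold (log2FC 1.35 ± 0.24, adjusted p = 0.00144). PPBP, a chemokine precursor of platelet granules, went from a median of 575 to 1524 FPKM (log2FC 1.37 ± 0.25, adjusted p = 0.00184). Leaving out the 5 animals set apart, 13 receptors, 12 cytoskeleton and signaling genes and 7 granule genes were called higher and none lower. The median change of the receptors was below 0 only in animal 14 (-0.41). The median change was above 0 in 13 animals for the cytoskeleton and signaling list. For the granule list it was above 0 in 11 animals and below 0 in animals 7, 11, 13 and 15. Of the 21 granule genes, 14 had a log2FC above 0.

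**Figure D3:**
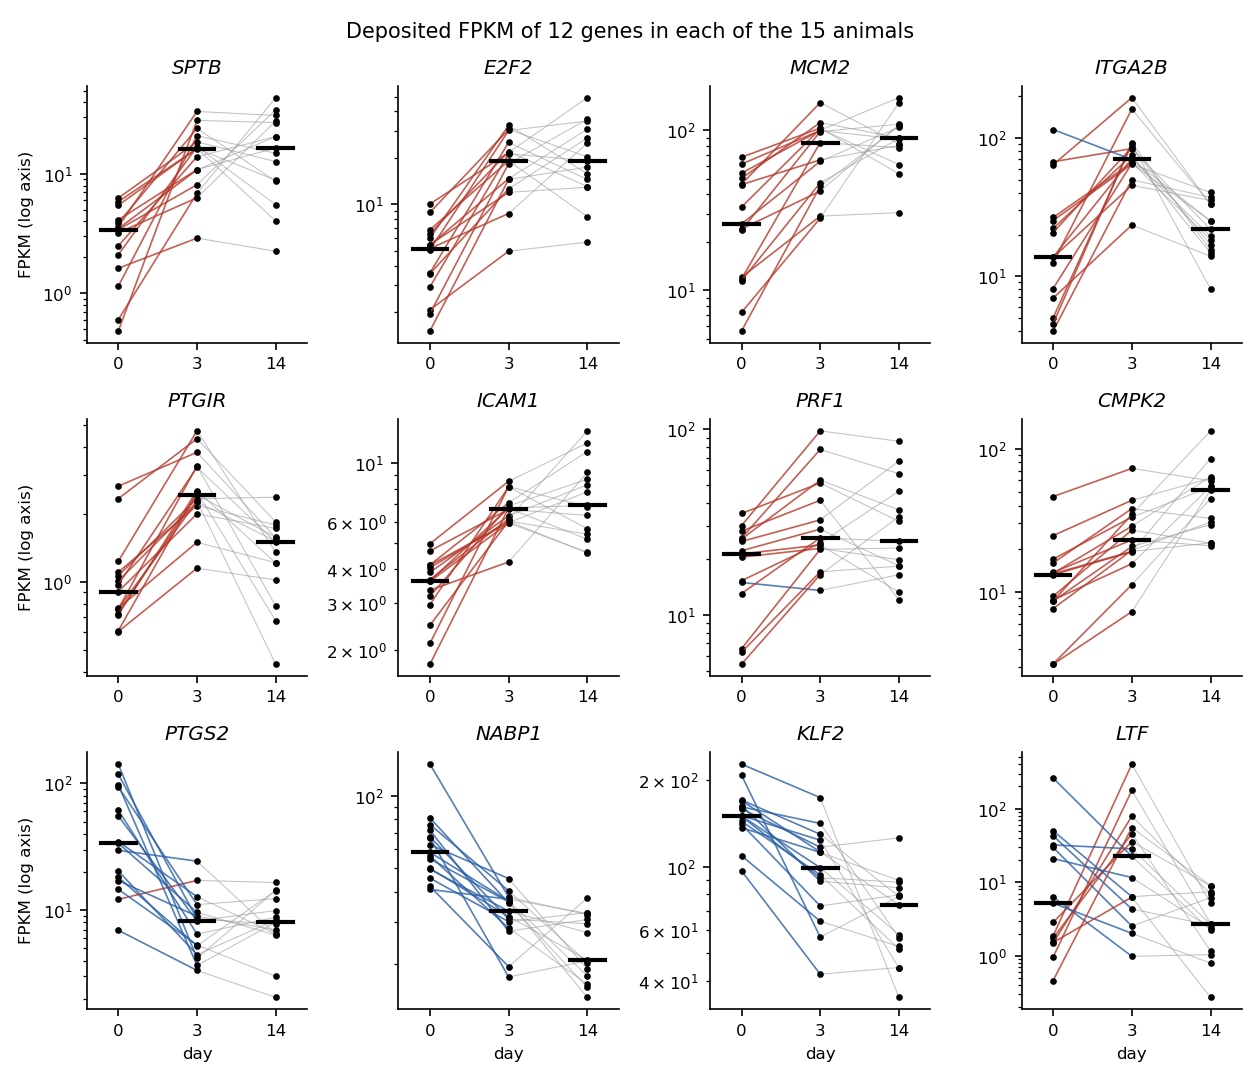
Deposited FPKM (log axes) of 12 genes on days 0, 3 and 14 in the 15 animals, with points for samples, black bars for the median of each day, and lines joining the samples of 1 animal, red for a rise and blue for a fall from day 0 to day 3. SPTB and ICAM1 show 14 of 15 day 3 samples above the highest field sample, NABP1 shows 14 below the lowest, and LTF moves both ways.

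Every called gene of both neutrophil lists fell, with a wide spread between animals. Of 26 genes of mature neutrophil surface and chemotaxis, 15 were called lower and none higher, a share of 57.7% beside 6.99% of all genes called lower, with a median log2FC of -0.99. Their summed level had a median of 6274 CPM on day 0 and 4036 CPM on day 3. PROK2, a chemotactic peptide of neutrophils, measured 1.24 to 35.3 FPKM (median 4.44) on day 0 and 0.507 to 5.25 FPKM (median 1.02) on day 3, and 9 day 3 samples lay below the day 0 range (log2FC -2.14 ± 0.43, adjusted p = 0.00314). STEAP4, a metalloreductase of neutrophils, went from a median of 408 to 129 FPKM (log2FC -1.24 ± 0.27, adjusted p = 0.00539). The surface proteins CD177 and MME (CD10, acquired late in maturation) fell, CD177 in 11 animals (log2FC -1.51 ± 0.37, adjusted p = 0.0092) and MME in 13 (log2FC -1.3 ± 0.32, adjusted p = 0.00946). The interleukin 8 receptors CXCR1 and CXCR2 had log2FC of -1.5 ± 0.38 and -1.13 ± 0.32 (adjusted p = 0.0119 and 0.0208). GCA, a calcium-binding protein of granulocytes, measured 67.4 to 1534 FPKM (median 136) on day 0 and 17.3 to 131 FPKM (median 50.8) on day 3, with 11 day 3 samples below every field sample (log2FC -1.95 ± 0.44, adjusted p = 0.00653).

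Animals were not alike in this group. The median change of the mature neutrophil list ran from -3.44 in animal 7 to 1.18 in animal 5 and was above 0 in 4 of 15 animals. Without the 5 animals set apart, no member was called, the median log2FC was -0.96, and 9 were called lower with the RNA integrity covariate. Limma voom on fragment counts recovered from the FPKM called 16 with all 15 animals. GCA was not called without those 5 animals either (adjusted p = 0.0743). Granule protein genes, made earlier in maturation in the marrow, did not move together. Of 24 tested, 2 were called lower and none higher, a share of 8.33% near the 6.99% of all genes called lower. They were CEACAM8 (log2FC -1.17 ± 0.30, adjusted p = 0.012) and TCN1 (log2FC -1.78 ± 0.61, adjusted p = 0.0494). The call of TCN1 was lost when any one of 10 animals was left out (adjusted p 0.0613 to 0.0990). The count itself was 4 without animal 3 and 1 without any one of those 10 animals. CEACAM8 and TCN1 were not called without the 5 animals set apart, when the median log2FC of the granule list was -0.07. LTF, lactoferrin of secondary granules, measured 0.46 to 261 FPKM (median 5.18) on day 0 and 0.984 to 403 FPKM (median 22.5) on day 3 and was higher on day 3 in 7 animals (log2FC 1.33 ± 1.0, adjusted p = 0.387). MPO, the myeloperoxidase of primary granules, had medians of 0.311 and 1.31 FPKM (log2FC 1.19 ± 0.55, adjusted p = 0.141), S100A12, a calgranulin, of 0.144 and 0.0441 FPKM (log2FC -0.81 ± 0.33, adjusted p = 0.0933), and MMP9, a gelatinase, of 92 and 50.1 FPKM (log2FC -1.22 ± 0.49, adjusted p = 0.0909). The median change of the granule list lay between 1.69 and 3.58 in animals 1, 3, 6, 9 and 14 and below 0 in the other 10.

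Called inflammatory genes were mostly lower. Of 52 tested, 20 were called lower and 5 higher, beside 6.99% of all genes called lower and 11.7% higher, and 27 were not called (median log2FC -0.51). The median change of the list ran from -1.80 in animal 11 to 0.73 in animal 5. It was above 0 in animals 3, 5, 6 and 9, in which the mature neutrophil list also rose. PTGS2, the inducible cyclooxygenase that starts prostaglandin synthesis, had the largest fall among genes with a symbol, a mean of at least 5 CPM and the same direction in at least 14 animals. It measured 6.93 to 142 FPKM (median 33.7) on day 0 and 3.35 to 24.3 FPKM (median 8.23) on day 3, with 7 day 3 samples below the lowest field sample and a fall in 14 of 15 animals (log2FC -2.15 ± 0.40, adjusted p = 0.00192). Its fall was called without the 5 animals set apart as well (adjusted p = 0.0408). NLRP6, an inflammasome sensor, measured 2.22 to 15.5 FPKM (median 4.9) on day 0 and 0.866 to 5.89 FPKM (median 1.95) on day 3, so the groups overlapped, and it fell in 14 animals (log2FC -1.42 ± 0.26, adjusted p = 0.00167). IL1B, the inflammasome's cytokine product, went from a median of 22.2 to 11.5 FPKM (log2FC -1.07 ± 0.30, adjusted p = 0.0194), CXCL8, the neutrophil attractant interleukin 8, from 42.5 to 16.2 FPKM (log2FC -1.32 ± 0.34, adjusted p = 0.0129), and SOCS3, a brake on cytokine signaling, from 22.7 to 7.95 FPKM (log2FC -1.42 ± 0.33, adjusted p = 0.00741). TLR4, the endotoxin receptor, had medians of 203 and 109 FPKM and missed the threshold (log2FC -0.72 ± 0.25, adjusted p = 0.0529). In the opposite direction, ICAM1, the adhesion ligand of leukocyte integrins, measured 1.76 to 4.98 FPKM (median 3.62) on day 0 and 4.25 to 8.52 FPKM (median 6.7) on day 3, and 14 of 15 day 3 samples exceeded every field sample (log2FC 0.98 ± 0.13, adjusted p = 2.65e-04). CXCL16 rose in 14 animals (log2FC 0.78 ± 0.10, adjusted p = 2.77e-04). Without the 5 animals set apart the list had 2 calls higher, ICAM1 and CXCL16, and 2 lower, PTGS2 and NLRP6 (median log2FC of the list -0.45). With the RNA integrity covariate 14 were lower and 2 higher.

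In the prostaglandin and leukotriene pathway, PTGS2 was the only one of 29 tested genes called lower, and 9 were called higher, 34.5% in either direction beside 18.7% of all genes. PTGS1, the constitutive cyclooxygenase that platelets use to make thromboxane, went from a median of 2.08 to 5.98 FPKM (log2FC 1.46 ± 0.28, adjusted p = 0.00235). PTGIR, the prostacyclin receptor that restrains platelets, had the lowest p of all genes. PTGIR measured 0.603 to 2.67 FPKM (median 0.908) on day 0 and 1.15 to 4.7 FPKM (median 2.44) on day 3 and rose in all 15 animals (log2FC 1.33 ± 0.12, adjusted p = 4.13e-05), with 5 day 3 samples above the day 0 range. CBR1, a carbonyl reductase that converts prostaglandin E2, rose 1.73-fold in every animal (log2FC 0.79 ± 0.10, adjusted p = 2.65e-04). PTGER4, a prostaglandin E2 receptor of leukocytes, had medians of 39.4 and 36.8 FPKM (log2FC -0.04 ± 0.08, adjusted p = 0.79). The pathway's median log2FC was -0.04, and 5 higher and 1 lower were called without the 5 animals set apart.

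**Figure D4:**
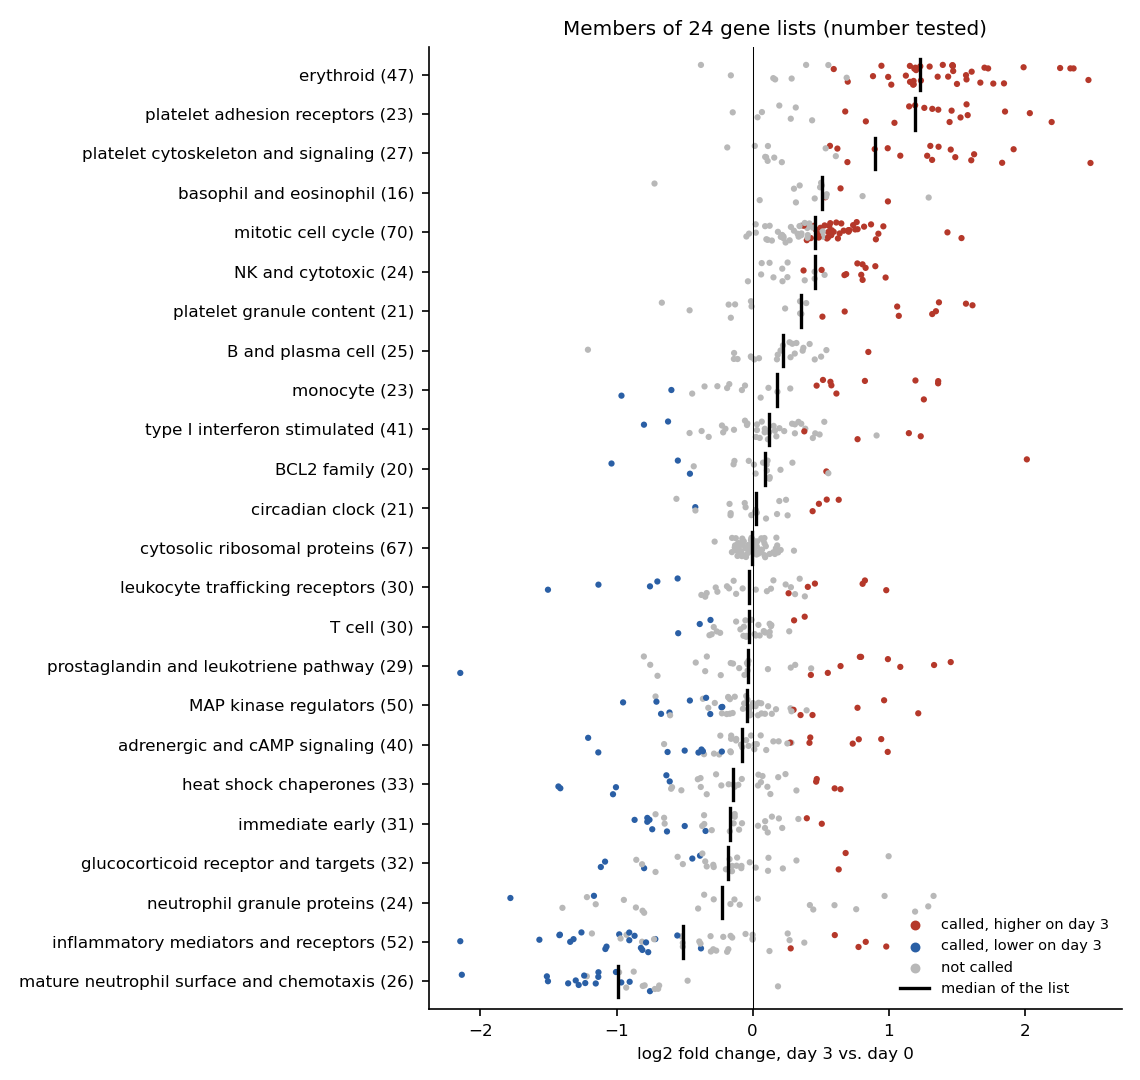
Log2 fold change on day 3 vs. day 0 (x axis) of every tested member of 24 gene lists (y axis, number tested in brackets), red where called higher, blue where called lower, grey where not called, with a black bar at each list's median. The erythroid list has the highest median (1.23) and the mature neutrophil list the lowest (-0.99), and the ribosomal protein genes lie close to 0.

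Of 24 NK and cytotoxic genes, 11 were called higher and none lower (45.8% beside 11.7% of all genes called higher, median log2FC 0.46). PRF1, the pore-forming perforin of killer cells, measured 5.41 to 35.1 FPKM (median 21.3) on day 0 and 13.5 to 98 FPKM (median 26) on day 3 and rose in all 15 animals after scaling (log2FC 0.90 ± 0.13, adjusted p = 5.07e-04). TBX21, the T-bet factor of cytotoxic cells, rose in 15 animals (log2FC 0.77 ± 0.14, adjusted p = 0.00182), NKG7, a granule protein, in 14 (log2FC 0.68 ± 0.15, adjusted p = 0.00506), and S1PR5, the receptor by which NK cells leave marrow, in 12 (log2FC 0.81 ± 0.20, adjusted p = 0.0102). Calls numbered 7 without animal 12, 6 with the RNA integrity covariate and 4 without the 5 animals set apart, which were PRF1, TBX21, NKG7 and S1PR5. The T cell list had 2 calls higher and 3 lower of 30 (median -0.03), 16.7% beside 18.7% of all genes. ICOS, a costimulator of activated helper cells, fell (log2FC -0.55 ± 0.13, adjusted p = 0.00764) from a median of 31.1 to 17.9 FPKM, and CTLA4, an inhibitory receptor, fell (log2FC -0.39 ± 0.11, adjusted p = 0.0259), a call lost without animal 2 or animal 10 (adjusted p = 0.0525 and 0.0501). CD8A, of cytotoxic T cells, rose from a median of 51.9 to 54.8 FPKM (log2FC 0.38 ± 0.10, adjusted p = 0.0169), and LAT, an adaptor of the T cell receptor, rose by 0.30 ± 0.09 (adjusted p = 0.0304), a call lost when any one of 8 animals was left out (adjusted p 0.0502 to 0.0615). Neither CD8A nor LAT was called without TMM scaling. CD3E and CD4, which mark T cells and their helper subset, were not called, with log2FC of 0.02 ± 0.14 and 0.01 ± 0.13 (adjusted p = 0.932 and 0.956). T cell calls numbered 2 without animal 2 or animal 10, 3 without animal 9, 12 or 13, 3 with the RNA integrity covariate and 2 without TMM scaling. No T cell gene was called higher and 3 were called lower without the 5 animals set apart, where CD8A and LAT had adjusted p of 0.0756 and 0.341.

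Monocyte genes gave 10 calls higher and 2 lower of 23, beside 11.7% of all genes called higher and 6.99% lower (median log2FC 0.18). The increases included CDKN1C, a cell cycle inhibitor of nonclassical monocytes, which measured 0.342 to 8.3 FPKM (median 2.75) on day 0 and 1.33 to 22.6 FPKM (median 5.8) on day 3 and rose in all 15 animals (log2FC 1.2 ± 0.13, adjusted p = 1.67e-04). The complement genes C1QB and C1QC rose by 1.36 ± 0.29 and 1.36 ± 0.26 on the log2 scale (adjusted p = 0.00417 and 0.00239), and CSF1R, the receptor for macrophage colony-stimulating factor, from a median of 20.2 to 34.6 FPKM (log2FC 0.62 ± 0.14, adjusted p = 0.00558). CD14, of classical monocytes, had medians of 134 and 111 FPKM and was not called (log2FC -0.19 ± 0.17, adjusted p = 0.487). With the 5 animals set apart left out, 5 monocyte genes were called higher and none lower, and CSF1R was not called (adjusted p = 0.0958). Of 25 B and plasma cell genes only SDC1, the plasma cell syndecan, was called (log2FC 0.85 ± 0.22, adjusted p = 0.0134), 4% of the list beside 18.7% of all genes, while MS4A1, the B cell antigen CD20, had a log2FC of -0.14 ± 0.19 (adjusted p = 0.653). CD24, MZB1 and TNFRSF17 had log2FC of -1.21, 0.37 and 0.50 with adjusted p of 0.067, 0.0866 and 0.132. SDC1 was not called without the 5 animals set apart (adjusted p = 0.206). The list's count was 3 without animal 14 and 2 without animal 3. Of 16 basophil and eosinophil genes, 15 had a log2FC above 0 (median 0.51). Only 3 were called, all higher, a share of 18.8% beside 11.7% of all genes called higher. They were ALOX15, a lipoxygenase of eosinophils (log2FC 0.99 ± 0.21, adjusted p = 0.00443), PTGDR2, a prostaglandin D2 receptor (log2FC 0.65 ± 0.13, adjusted p = 0.00384), and the transcription factor GATA2 (log2FC 0.53 ± 0.17, adjusted p = 0.0409), whose call was lost when any one of 9 animals was left out (adjusted p 0.0512 to 0.0715). HDC, which makes histamine, had a log2FC of 0.46 ± 0.16 (adjusted p = 0.0514). The count was 5 without animal 2 or animal 15, and ALOX15 and PTGDR2 were the 2 genes called without the 5 animals set apart.

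Of 32 tested genes of the glucocorticoid response, 2 were called higher and 5 lower (21.9% in all beside 18.7% of all genes), beside 11.7% of all genes called higher and 6.99% lower, and 8 had a log2FC above 0 (median -0.18). NR3C1, the receptor itself, measured 41.8 to 75.4 FPKM (median 61.6) on day 0 and 25.3 to 65.9 FPKM (median 43) on day 3, fell in 14 of 15 animals and had 7 day 3 samples below the field range (log2FC -0.39 ± 0.10, adjusted p = 0.0124). FKBP5, a chaperone that damps the receptor and that cortisol induces, measured 20.6 to 80.5 FPKM (median 34.5) on day 0 and 20.1 to 74.7 FPKM (median 36.4) on day 3. The groups overlapped over nearly their whole range, and FKBP5 was not called (log2FC 0.32 ± 0.22, adjusted p = 0.328). TSC22D3, the mediator GILZ, had medians of 174 and 175 FPKM (log2FC -0.02 ± 0.12, adjusted p = 0.93). PER1, a clock gene that cortisol also induces, rose from a median of 1.17 to 1.63 FPKM (log2FC 0.63 ± 0.19, adjusted p = 0.0311), a call lost without animal 2 or animal 9 (adjusted p = 0.0645 and 0.0518). SGK1, a kinase induced by glucocorticoids, measured 12.5 to 81 FPKM (median 26.1) on day 0 and 7.72 to 25.4 FPKM (median 15.8) on day 3 and fell in 14 animals (log2FC -0.80 ± 0.16, adjusted p = 0.00262). BCL6, a repressor that shapes lymphoid and myeloid fate, went from a median of 22 to 10.2 FPKM (log2FC -1.08 ± 0.30, adjusted p = 0.0201) and TXNIP, an inhibitor of thioredoxin, from 1205 to 861 FPKM (log2FC -0.44 ± 0.13, adjusted p = 0.0217). No member was called without the 5 animals set apart (median log2FC -0.16), where NR3C1 had a log2FC of -0.30 (adjusted p = 0.141). With all 15 animals, limma voom called 8, the fit of all 45 samples 12 the fit without TMM scaling 10 and the fit without a filter on low values 4, and 4 were called without animal 2.

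Among the other clock genes, BHLHE40, a repressor of the clock, rose in all 15 animals from a median of 9.29 to 12.1 FPKM (log2FC 0.54 ± 0.09, adjusted p = 8.72e-04), TEF, a clock output factor, rose by 0.44 ± 0.12 (adjusted p = 0.0168), and ARNTL, the BMAL1 activator, fell from a median of 26.9 to 19.4 FPKM (log2FC -0.42 ± 0.12, adjusted p = 0.0194). The clock list had 4 calls higher and 1 lower of 21 (23.8% beside 18.7% of all genes), 3 in all without animal 2 and 1, BHLHE40, without the 5 animals set apart. TEF was not called without TMM scaling.

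Receptor signaling through cAMP, the pathway of adrenaline, had 7 calls higher and 8 lower of 40 (37.5% beside 18.7% of all genes, median -0.08). PDE4B, a phosphodiesterase that breaks down cAMP, measured 23.4 to 72.3 FPKM (median 31.4) on day 0 and 12.8 to 34.3 FPKM (median 22.4) on day 3 and fell (log2FC -0.62 ± 0.14, adjusted p = 0.00575), and the transcription factor CREB1 fell in 14 animals (log2FC -0.38 ± 0.08, adjusted p = 0.00302). RGS2, which shortens G protein signals, went from a median of 491 to 220.4 FPKM (log2FC -1.21 ± 0.29, adjusted p = 0.00854). GNAS, the stimulatory G protein, rose from a median of 95.9 to 186 FPKM (log2FC 0.95 ± 0.16, adjusted p = 0.00111). GNAS and PRKAR2B were called higher, and no member lower, without the 5 animals set apart.

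Immediate early genes, which respond to stimuli within minutes, had 2 calls higher and 8 lower of 31, beside 11.7% of all genes called higher and 6.99% lower (median -0.17). KLF2, a quiescence factor of lymphocytes and monocytes, was the most regular. It measured 96.7 to 228 FPKM (median 151) on day 0 and 42.2 to 174 FPKM (median 99.2) on day 3 and fell in all 15 animals (log2FC -0.63 ± 0.12, adjusted p = 0.00181), also without the 5 animals set apart (adjusted p = 0.0134). IER5 went from a median of 16.1 to 8.2 FPKM (log2FC -0.77 ± 0.17, adjusted p = 0.00501) and ZFP36, which destabilizes cytokine messages, from 24.4 to 16.4 FPKM (log2FC -0.74 ± 0.18, adjusted p = 0.0114), while JUND rose (log2FC 0.51 ± 0.12, adjusted p = 0.00975). FOS, JUN, EGR1 and DUSP1 were not called, with log2FC of -0.65 ± 0.24, -0.36 ± 0.17, 0.11 ± 0.14 and -0.71 ± 0.30 (adjusted p = 0.0667, 0.162, 0.619 and 0.11). Calls numbered 6 without animal 2 and 6 with the RNA integrity covariate (1 higher, 5 lower). KLF2 and IER5, both lower, were the calls without the 5 animals set apart. In the MAP kinase list, 6 of 50 were called higher and 9 lower, beside 11.7% and 6.99% of all genes, so the share called higher was like that of all genes. The kinase MAP2K3, which activates p38, measured 10.7 to 21.9 FPKM (median 16) on day 0 and 17.6 to 45.1 FPKM (median 31.1) on day 3 with 14 of 15 day 3 samples above the field range (log2FC 0.97 ± 0.15, adjusted p = 5.78e-04). MAP2K7, which activates JNK, rose in every animal (log2FC 0.77 ± 0.13, adjusted p = 0.00111), DUSP3, a MAP kinase phosphatase, rose 2.33-fold (log2FC 1.22 ± 0.20, adjusted p = 9.96e-04), and the adaptor SHC1 rose by 0.44 ± 0.08 (adjusted p = 0.00215). SOS2, the Ras exchange factor, measured 19 to 102 FPKM (median 29.5) on day 0 and 9.27 to 24.2 FPKM (median 18.3) on day 3 and fell in 14 animals (log2FC -0.95 ± 0.22, adjusted p = 0.00709). The 4 increases just named were the calls of the list without the 5 animals set apart.

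Of 41 tested interferon genes, 4 were called higher and 2 lower (14.6% beside 18.7% of all genes, median log2FC 0.12), and 10 were called without animal 11. CMPK2, an antiviral nucleotide kinase, measured 3.12 to 46.2 FPKM (median 13.1) on day 0 and 7.26 to 72.6 FPKM (median 23) on day 3 and rose in all 15 animals despite the overlap (log2FC 1.15 ± 0.13, adjusted p = 2.35e-04). RSAD2, the antiviral protein viperin, rose in 14 (log2FC 1.24 ± 0.23, adjusted p = 0.00184). OASL, of the oligoadenylate synthetase family, rose (log2FC 0.77 ± 0.18, adjusted p = 0.00796). SAMD9L, an antiviral and growth-restraining protein, fell (log2FC -0.80 ± 0.24, adjusted p = 0.0273), a call lost without animal 2, 4, 7 or 11 (adjusted p 0.0505 to 0.0572). ISG15, MX1 and IFI44 were not called, with log2FC of 0.29 ± 0.28, 0.53 ± 0.32 and 0.09 ± 0.41 (adjusted p = 0.515, 0.266 and 0.911). The list's count was 3 without animal 2, 4 or 7 and 3 without the 5 animals set apart, which were CMPK2, RSAD2 and OASL.

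Chaperones were also split, with 4 calls higher and 6 lower of 33, beside 11.7% of all genes called higher and 6.99% lower. HSPA1L, an HSP70 relative, went from a median of 0.759 to 0.35 FPKM (log2FC -0.63 ± 0.16, adjusted p = 0.0103), while the cochaperones BAG1, DNAJB2 and DNAJB6 rose by 0.47 ± 0.10, 0.60 ± 0.13 and 0.65 ± 0.16 (adjusted p = 0.00416, 0.00587 and 0.011). HSPA1A, the inducible HSP70, measured 2.91 to 156 FPKM (median 7.82) on day 0 and 2.48 to 7.46 FPKM (median 4.24) on day 3 (log2FC -1.41 ± 0.40, adjusted p = 0.0208), and its near-identical copy HSPA1B can share reads with it, so the split between them is uncertain. BAG1 was the 1 chaperone gene called without the 5 animals set apart. In the BCL2 family, 2 of 20 were called higher and 3 lower, 25% in all beside 18.7% of all genes. Beside BCL2L1, BCL2L13, a mitochondrial family member, rose (log2FC 0.54 ± 0.10, adjusted p = 0.00193). BCL2A1, a survival protein of neutrophils, fell (log2FC -1.04 ± 0.33, adjusted p = 0.0373) and BNIP2, a BCL2-interacting protein, fell (log2FC -0.46 ± 0.14, adjusted p = 0.0315), but these calls were lost when any one of 8 and 6 animals was left out (adjusted p 0.0586 to 0.0758 and 0.0520 to 0.0650). The family had 2 or 3 calls without animal 2, 7, 8, 10, 11, 13 or 15, and without the 5 animals set apart BCL2L1 and BCL2L13 were called. None of 67 ribosomal protein genes was called by limma, none by limma voom and none at an unadjusted p under 0.05, with a median log2FC of -0.01. Of all 18142 genes, 5883 were at an unadjusted limma p under 0.05. Within animals the ribosomal list did move, with a median change from -0.98 in animal 3 to 0.86 in animal 7 and above 0 in 7 animals. The 4 with the lowest p, RPS18, RPLP2, RPL7 and RPS12, had log2FC of -0.28, 0.17, 0.30 and 0.21 (adjusted p = 0.307, 0.334, 0.34 and 0.429). Of 30 trafficking receptors 6 were called higher and 5 lower (36.7% beside 18.7% of all genes), with CX3CR1, the fractalkine receptor of patrolling monocytes and cytotoxic cells, at 0.83 ± 0.20 (adjusted p = 0.00948) opposite CXCR1. Trafficking calls numbered 6 with the RNA integrity covariate and 5 without the 5 animals set apart.

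Some small changes were regular across animals. Those named here were picked among called genes with a mean of at least 5 CPM and the same direction in at least 14 animals. Their regularity was thus part of the choice. Of such genes that moved by less than 0.5 on the log2 scale, those with the lowest p in the upward direction were TSTA3, which makes GDP-fucose, EMD, the nuclear envelope protein emerin, PSMD2, a proteasome subunit, SDHA, of mitochondrial complex II, APEH, a peptidase, and YIF1B, a trafficking protein, with log2FC between 0.39 and 0.49. TSTA3 measured 14.4 to 34.6 FPKM (median 27.8) on day 0 and 22.8 to 48.5 FPKM (median 33) on day 3 and rose in all 15 animals (log2FC 0.42 ± 0.07, adjusted p = 6.10e-04). SAMD8, ZBTB18, CDC14A, STAMBPL1, PSPC1 and ZNF207 led the downward direction, with log2FC between -0.50 and -0.39, each lower in all 15 animals. SAMD8, a ceramide enzyme of the endoplasmic reticulum, measured 7.13 to 11 FPKM (median 9.53) on day 0 and 3.91 to 8.95 FPKM (median 6.64) on day 3, with 10 day 3 samples below the field range (log2FC -0.49 ± 0.08, adjusted p = 6.33e-04). ZBTB18 is a transcriptional repressor, and 8 of its day 3 values lay below the field range (log2FC -0.48 ± 0.08, adjusted p = 7.00e-04). For some larger falls the groups hardly overlapped. NABP1, a single-stranded DNA binding protein, measured 40.9 to 136 FPKM (median 58.4) on day 0 and 17.7 to 45.4 FPKM (median 33.2) on day 3, and 14 of 15 day 3 samples lay below every field sample (log2FC -0.90 ± 0.16, adjusted p = 0.00129). TMEM71 had 13 such samples (log2FC -1.08 ± 0.24, adjusted p = 0.00511), NSMCE2, a SUMO ligase of DNA repair, had 12 (log2FC -0.72 ± 0.17, adjusted p = 0.00698), and VCPKMT, a methyltransferase of the chaperone VCP, had 11 (log2FC -0.80 ± 0.17, adjusted p = 0.00452). SLC25A40, a mitochondrial carrier, and FAM126B, of a lipid kinase complex, fell by 0.84 and 0.83 on the log2 scale (adjusted p = 0.0054 and 0.00261). TMEM71, SLC25A40, FAM126B and SOS2 were not called without the 5 animals set apart (adjusted p = 0.0609, 0.0768, 0.0639 and 0.0778). ZEB1, a repressor active in lymphocytes, fell in all 15 animals and had the lowest p of any decrease, from a median of 14.6 to 9.23 FPKM (log2FC -0.57 ± 0.07, adjusted p = 2.65e-04). NAPA, a vesicle fusion factor, measured 27.9 to 80.7 FPKM (median 52.7) on day 0 and 76 to 198 FPKM (median 119) on day 3, with 14 day 3 samples above the field range (log2FC 1.21 ± 0.13, adjusted p = 8.28e-05).

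Called genes moved the same way in most animals. The share of genes called higher that were higher in a given animal ran from 71.8% in animal 13 to 95% in animal 11, and the share of genes called lower that were lower from 53.7% in animal 5 to 96.1% in animal 2. Since the calls were made on these animals, the shares describe them and test nothing. The platelet adhesion list had a median change above 0 in 14 animals and the erythroid list in all 15. Animals 3, 5, 6 and 9 had median changes above 0 for the mature neutrophil list, and animals 7, 11, 15, 4 and 2 had median changes below -2.

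**Figure D5:**
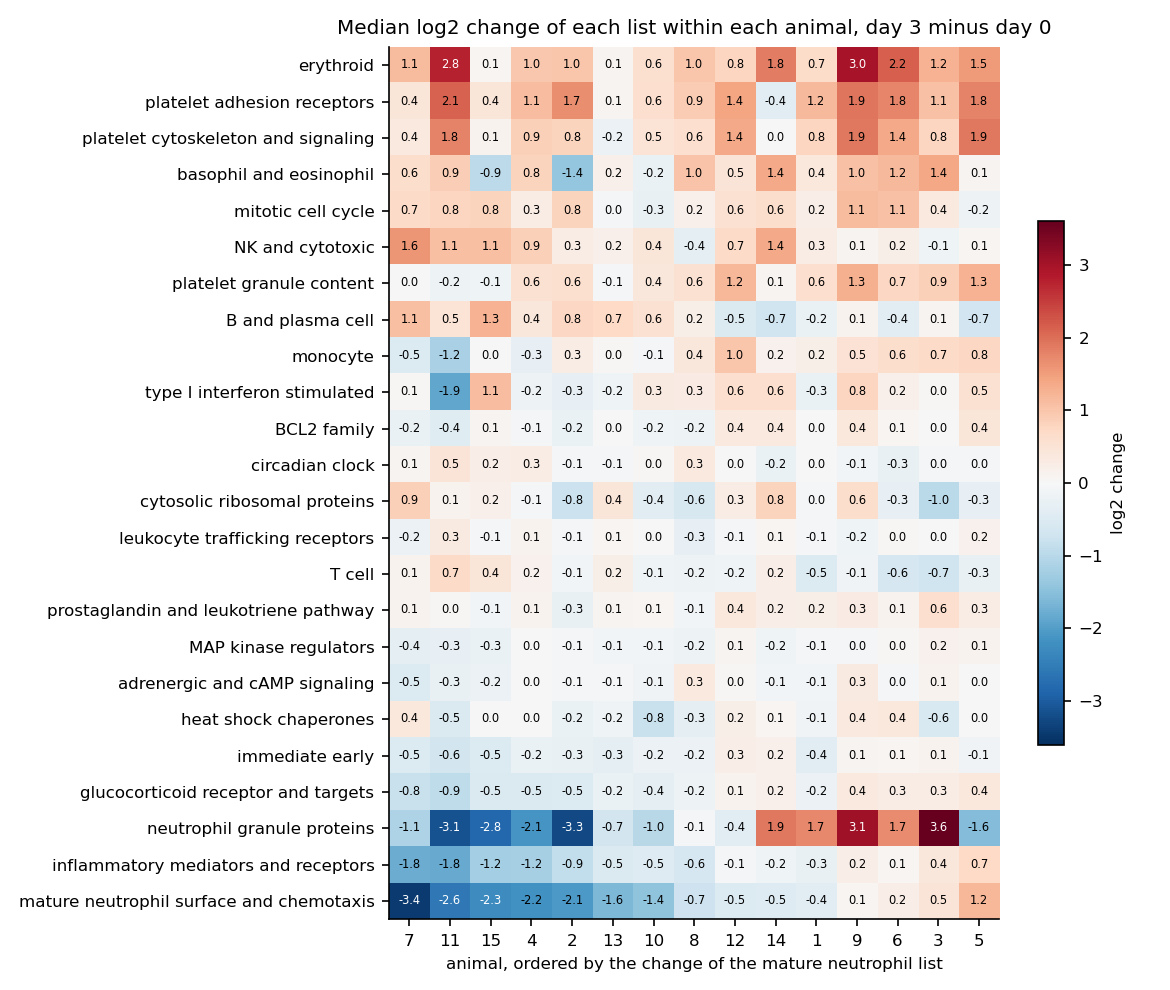
Median log2 change on day 3 minus day 0 of each of the 24 gene lists (vertical axis) within each animal (horizontal axis, ordered by the mature neutrophil list), red for higher and blue for lower on day 3. The erythroid list is above 0 in all 15 animals, and the neutrophil granule list runs from -3.26 to 3.58.

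Day 14 values show how the genes called on day 3 stood later. The comparison of day 14 with day 3 shares the day 3 samples with the comparison above, so its values are set beside them and are not independent. Of 17785 genes, 2436 (13.7%) were called higher and 2467 (13.9%) lower on day 14 vs. day 3. Without animals 4 and 8, which had a day 14 or day 3 library with over 24000 genes detected, the counts were 1907 and 1325. Of the platelet receptors, 15 of 23 were called lower and none higher (13 without animals 4 and 8), as were 19 of 27 cytoskeleton and signaling genes (19) and 7 of 21 granule genes (5). The receptors' summed level went from a median of 1481 to 612 CPM. ITGA2B fell to a median of 21.8 FPKM (log2FC -1.4 ± 0.25, adjusted p = 0.00209) and TAGLN to 1.7 FPKM (log2FC -1.91 ± 0.35, adjusted p = 0.0024). PTGIR fell to 1.51 FPKM (log2FC -0.61 ± 0.13, adjusted p = 0.0056). Erythroid genes went further up, with 27 of 47 called higher and none lower (22 without animals 4 and 8) and a summed level of 121967 CPM, although SPTB, at 16.6 FPKM, was not called (log2FC 0.45 ± 0.41, adjusted p = 0.423). Of the mitotic list 41 of 70 were called higher on day 14 vs. day 3 (35 without animals 4 and 8). Ribosomal protein genes, with no call on day 3, had 47 of 67 called higher on day 14 vs. day 3 (35 without animals 4 and 8). CMPK2 rose again to 51.3 FPKM (log2FC 1.25 ± 0.33, adjusted p = 0.0126). On day 14 vs. day 3, 13 of 52 inflammatory genes were called lower and 1 higher (8 and 1 without animals 4 and 8), 8 of 26 mature neutrophil genes lower and none higher (6 without those animals), and 13 of 24 granule genes lower and none higher (12 without them). PTGS2, NLRP6, KLF2 and NR3C1 were not called between day 3 and day 14, with log2FC of 0.39 ± 0.20, -0.01 ± 0.15, -0.18 ± 0.10 and -0.02 ± 0.09 (adjusted p = 0.144, 0.954, 0.178 and 0.892). LTF, not called on day 3, fell to a median of 2.67 FPKM (log2FC -2.23 ± 0.53, adjusted p = 0.00793).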

How the data were processed

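RNA from whole blood of 15 animals was sequenced on days 0, 3 and 14. According to the sources used here, the authors removed globin and ribosomal RNA, converted base calls with bcl2fastq 2.17, aligned reads with STAR to the Chlorocebus_sabeus 1.1 assembly and ran HTSeq for the counting. What was deposited is FPKM, for each gene in each sample. The authors named edgeR for their own modelling of counts. Because deposited FPKM are not counts, log2(FPKM + 0.1) after TMM scaling was tested with limma 3.58.1 (R 4.3.3), with the animal as a block, on genes above 0.5 CPM in at least 3 of the 30 samples. P-values were adjusted by Benjamini-Hochberg over 18142 genes, and sums and permutation tests used numpy 2.4.6 and pandas 2.3.3. Dividing by what 1 fragment is worth gave whole numbers within 0.02 for 100% of values above 0, so depth was recovered. The 0.5 CPM limit equals 6.61 to 14.5 fragments, and the limma voom alternative used these fragments. The scripts were tested on simulated data.

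Day 0 and day 3 samples carry the same animal numbers. Deviations from the day means correlated within every animal (r 0.110 to 0.574, mean 0.382, across genes), and across animals averaged -0.0271. Animals are the replicates.

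The comparison and the gene lists were chosen with earlier results of these data known. Named genes were the 12 largest rises and falls with a mean of at least 5 CPM, an adjusted p under 0.05 and the same direction in at least 14 animals (no LOC or orf symbols), the 6 lowest p in each direction among changes under 0.5 on the log2 scale that passed the same filters, the 4 lowest p of each list, and FKBP5, TSC22D3, PER1 and NR3C1. The 83 other genes considered for naming were chosen after their values were seen, as was the fit without 5 animals. LOC symbols (5283 tested, 708 called) were not named, and some genes taken by the rule are not reported here. Of 33994 listed gene rows, 1 symbol occurred more than once. RNA integrity numbers came from the study's supplement. No sequences or coordinates are given, since no genome of the authors' build was used here.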

Additional observations from a re-analysis of the deposited data

How the results depend on the processing

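None of the 160 named genes called reversed direction under any alternative that tested it, but the alternatives reused samples on which the calls were made. Of them, 141 were called without the replicate block, 147 with the RNA integrity covariate, 149 to 157 with 1 animal left out and 103 without the 5 animals with a library of over 24000 genes detected, a choice made after seeing the data. Calls numbered 2566 to 3468 with 1 animal left out (1710 to 1999 higher, 856 to 1469 lower), and 273 to 393 and 87 to 232 at 2-fold higher and lower. Without the replicate block, that is without pairing by animal, 1839 genes were called (1010 higher, 829 lower). Without the 5 animals 1000 were called (797 higher, 203 lower), with 18 at 2-fold lower, on 10 animals. Without TMM scaling 1349 were called higher. Decreases of 2-fold numbered 91 with the RNA integrity covariate, 269 with limma voom, 92 among genes of at least 5 CPM and 72 with a pseudocount of 1 FPKM, which also left 178 increases of 2-fold. The difference in the share of the 20 most abundant genes was 3.22 to 4.01 percentage points with 1 animal left out. The causes of these shifts were not tested. Median-of-ratios scaling, the trend prior, all 45 samples, a pseudocount of 0.01 FPKM and no filter on low values kept each of these counts within 1.5 times.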

Other observations

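Heat shock genes of animal 10 stood high in the field. Its day 0 sample held 156 FPKM of HSPA1A, 388 FPKM of DNAJB1, the cochaperone of HSP70, and 1109 FPKM of HSP90AA1, the inducible HSP90. On day 3 the same animal held 4.05, 26.3 and 118 FPKM. The summed level of the 34 chaperone genes in the data, tested or not, was 18517 CPM in that field sample, against 2336 to 7143 CPM in the other field samples. Reads of HSPA1A and its near-identical copy HSPA1B cannot be told apart with certainty. DNAJB1, called lower on day 3 (log2FC -1.03 ± 0.31, adjusted p = 0.0274), was not called without animal 11 or animal 13 (adjusted p = 0.0571 and 0.0529, limma).

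Interferon genes of animal 11 stood high in the field as well. IFI44 measured 964 FPKM on day 0 and 56.4 FPKM on day 3 in that animal, and IFIT1, which binds viral RNA, measured 277 and 86.8 FPKM. In animal 2, IFI44 measured 481 and 187 FPKM. The median change of the interferon list was -1.88 in animal 11 and 1.1 in animal 15.

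LTF moved up in some animals and down in others. It went from 1.87 to 403 FPKM in animal 3 and from 0.957 to 177 FPKM in animal 9, and from 261 to 22.5 FPKM in animal 5. B and plasma cell genes, of which 1 of 25 was called on day 3, had 15 called lower and 2 higher on day 14 vs. day 3 (16 and 2 without animals 4 and 8). Of all genes, 13.9% were called lower and 13.7% higher in that comparison with all 15 animals.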
